A study of Mus musculus with 3 samples.

Results

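Of the 1003 ETO2 peaks found in both chromatin immunoprecipitation (ChIP) libraries of FLK1+ mesoderm, 368 carried the trinucleotide CTG followed, on the same strand, by 8, 9 or 10 bases and GATA. These 368 regions are the members described here, and the CTG, the bases between and the GATA together are called the composite. The members were chosen by the peak calls and by sequence: a replicate 1 peak had to overlap a replicate 2 peak by at least 1 bp, and the composite had to lie, on either strand, in the 100 bp of the mouse genome (build mm9) centred on the replicate 1 summit. The replicate 1 list held 2335 peaks and the replicate 2 list 1873, so 43.0% of replicate 1 peaks and 54.2% of replicate 2 peaks overlapped a peak of the other list. The overlap, the replicate 1 summit and the presence of CTG and GATA at these distances are therefore properties of the choice and not results, whereas the bases around the composite, the order among the members, and their genes were not used by it.

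The study asked where ETO2 binds in the mesoderm from which blood arises. Wild-type mouse embryonic stem (ES) cells of a C57Bl/6 X Sv129 background were grown into embryoid bodies, and chromatin of their FLK1+ cells was immunoprecipitated with an antibody against ETO2 in 2 libraries, here called replicate 1 and replicate 2. The labels give day 4 for all samples, whereas the design text of the series gives day 3.5. The methods of the study also give day 4 for the ETO2 ChIP. Replicate 1 peaks were called against an input library, replicate 2 peaks without one, and no treatment or mutant was compared. The design text speaks of independent differentiations, but both lists carry the same ChIP name, so it is uncertain whether the replicates come from separate cultures. With 2 libraries of a single group no test over samples was possible. Intervals are 95% intervals (Wilson for shares, order statistics for medians, exact Poisson for fragment numbers). They cover only counting error for shares and fragment numbers, and only the spread among peaks for medians. None covers variation between cultures. Peaks of 1 library are not replicates of each other.

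ETO2, encoded by Cbfa2t3, is a co-repressor that does not bind DNA itself. It is recruited through a complex in which SCL (Tal1) and an E protein contact an E-box, a GATA factor contacts a GATA motif, and LMO2 and LDB1 bridge the DNA-bound proteins. An E-box reads CANNTG, and SCL with its partner often contacts only the CTG side of it when GATA lies one helical turn away, which is why CTG is called an E-box half-site. In blood cells the extended GATA motif is written WGATAR, where W is A or T and R is A or G.

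The composites of the strongest members are shown first, because they give the sequence that the rest of the results describe. They are taken from the 12 members that ranked highest by fold enrichment, averaged over both libraries, and from the best members of each spacing. Of the 12 ranked highest, the member at Skap1 is not shown. The Irs2 site is not among those 12 and is given as one of the best with 10 bases. Each is read 5′ to 3′ on the strand of the composite with 6 bases on either side, with CTG and GATA in capitals, and is named by the protein-coding gene with the nearest start site.
Rbm38, 9 bases, composite at chr2:172860772-172860787 (minus strand): cttgtgCTGccaccagctGATAagagac
Cand1, 9 bases, composite at chr10:118523721-118523736 (minus strand): ttctggCTGgactctccaGATAaacaga
Ric3, 9 bases, composite at chr7:116258730-116258745 (plus strand): aagggcCTGctagcccgaGATAatggca
Cbfa2t3, 9 bases, composite at chr8:125243829-125243844 (plus strand): cctcgtCTGtgagaagaaGATAaccaca
Zfp423, 9 bases, composite at chr8:90357385-90357400 (minus strand): ggccgaCTGggggaggctGATAagagcc
Cebpe, 9 bases, composite at chr14:55324876-55324891 (minus strand): ttaggaCTGcacttgggaGATAagctcg
Dus3l, 9 bases, composite at chr17:56901729-56901744 (plus strand): cccgacCTGcagccccgaGATAaggacc
Ly86, 9 bases, composite at chr13:37601501-37601516 (plus strand): ctgggtCTGtaaaacgatGATAgaaact
Smad6, 8 bases, composite at chr9:63893058-63893072 (minus strand): ggctgtCTGtttgccaaGATAccatca
Gse1, 8 bases, composite at chr8:122895880-122895894 (minus strand): gaaggcCTGgggacacaGATAaggctg
Olfr1378, 10 bases, composite at chr11:50778584-50778600 (minus strand): aagccaCTGgtttcctgtaGATAagccag
Irs2, 10 bases, composite at chr8:11084252-11084268 (minus strand): tagcttCTGttctgccaaaGATAcaggcc
All 12 sites shown were half-sites, in which the bases before CTG did not complete CANCTG. In 10 of the 12 GATA was part of WGATAR, and the exceptions, nearest to Smad6 and Irs2, read AGATAC.

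For 8 members at genes of the lists described further on the whole 100 bp window is given, so that the composite can be seen with the other motifs around it.
Cbfa2t3, chr8:125243783-125243882 (plus strand): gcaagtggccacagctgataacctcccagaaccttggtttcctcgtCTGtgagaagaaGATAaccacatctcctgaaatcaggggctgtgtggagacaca
Gse1, chr8:122895795-122895894 (minus strand): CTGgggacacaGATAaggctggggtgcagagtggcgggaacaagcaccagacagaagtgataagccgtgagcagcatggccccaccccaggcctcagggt
Zfpm1, chr8:124833352-124833451 (minus strand): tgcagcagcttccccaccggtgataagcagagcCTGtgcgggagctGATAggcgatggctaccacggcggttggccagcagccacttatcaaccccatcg
Runx1, chr16:93147942-93148041 (plus strand): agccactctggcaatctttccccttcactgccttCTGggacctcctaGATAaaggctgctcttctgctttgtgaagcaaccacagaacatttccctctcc
Nfe2, chr15:103088970-103089069 (minus strand): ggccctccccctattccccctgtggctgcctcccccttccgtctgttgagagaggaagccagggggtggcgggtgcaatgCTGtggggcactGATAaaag
Kdr, chr5:76296531-76296630 (minus strand): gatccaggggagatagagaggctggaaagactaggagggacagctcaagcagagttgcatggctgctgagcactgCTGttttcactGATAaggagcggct
Smad6, chr9:63893034-63893133 (minus strand): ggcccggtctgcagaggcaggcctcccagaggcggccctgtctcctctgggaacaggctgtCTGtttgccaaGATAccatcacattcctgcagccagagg
Bmp2, chr2:133256610-133256709 (minus strand): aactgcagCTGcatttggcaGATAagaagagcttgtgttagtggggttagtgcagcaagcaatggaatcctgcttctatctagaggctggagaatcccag
The Cbfa2t3, Gse1 and Zfpm1 windows held 1, 1 and 2 further WGATAR sites outside the composite, and the Cbfa2t3 window also held CAGCTG, the palindromic E-box. The windows nearest to Runx1, Nfe2 and Smad6 held no further WGATAR. In the Bmp2 window the E-box was complete, since the bases before CTG read CAG and gave CAGCTG.

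The pair was frequent at these spacings in 1 arrangement only. CTG before GATA was present in 12.7% of the 1003 shared windows with 8 bases between, in 19.2% with 9 and in 7.38% with 10. Outside these values, between 0 and 20 bases, the share was at most 6.28%, with a median of 4.29%. With CAG in place of CTG, which is the half-site read on the other strand, no distance exceeded 6.28%. With GATA before CTG the highest share was 5.08%, and with GATA before CAG it was 5.88%. Thus the 3 other arrangements had no distance above the highest share that CTG before GATA reached outside its own 3 spacings. The 3 spacings were themselves chosen with a scan of these peaks known, so their height here is a description.

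**Figure D1:**
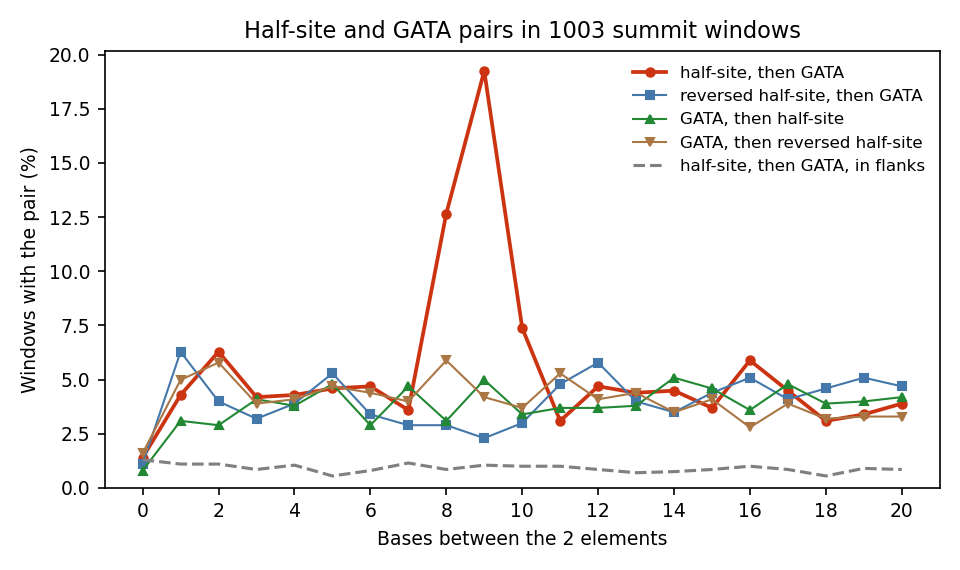
Share of the 1003 shared summit windows (y axis, %) with the E-box half-site and GATA at each number of bases between them (x axis), for the 4 arrangements of the pair; the dashed line gives the first arrangement in windows 500 bp to either side. The half-site followed by GATA stands out at 8, 9 and 10 bases, with 19.2% at 9, whereas the other arrangements stay at or below 6.28%.

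Among the members 9 bases was the commonest spacing. It was found in 184 members (50%, 44.9 to 55.1), compared with 120 (32.6%, 28.0 to 37.6) for 8 bases and 64 (17.4%, 13.9 to 21.6) for 10. As a local background, the 2983 composites lying 500 to 5000 bp from a shared summit and outside every peak were examined, and they were spread evenly, with 34.0% at 8 bases, 33.1% at 9 and 32.9% at 10. Over the 960403 composites of the whole genome the shares were 32.6%, 31.1% and 36.3%. For every 10000 composites of the genome there were 6.16 members with 9 bases (5.30 to 7.12), 3.83 with 8 (3.18 to 4.58) and 1.84 with 10 (1.41 to 2.34). Therefore, as a share of the 3 spacings, 9 bases was higher and 10 lower in members than in both backgrounds. The 8-base share lay within counting error of them. These shares are relative to each other, so they do not mean that composites with 8 or 10 bases were scarce at shared peaks. Flanking windows 500 bp from the summit held the pair in 0.847% with 8 bases, 1.05% with 9 and 0.997% with 10. All 3 lay below the 12.7%, 19.2% and 7.38% of shared windows. Most windows held 1 composite, but 32 held 2 and 1 held 3.

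GATA was extended to WGATAR in most members. This was so in 290 of 368 (78.8%, 74.3 to 82.7), compared with 35.8% (34.1 to 37.5) of the neighbouring composites and 35.7% of those of the genome. AGATAA was the commonest form, in 152 members (41.3%), followed by TGATAA in 76 (20.7%), AGATAG in 35 (9.51%) and TGATAG in 27 (7.34%). The base after GATA was A in 67.1% of members (62.2 to 71.7) and in 26.9% of neighbouring composites, and the next base was G in 49.2% (44.1 to 54.3) and 20.6%. Together they gave GATAAG in 140 members (38.0%, 33.2 to 43.1) and in 7.01% of the neighbours. A G directly before GATA was rare in the members, at 4.35% (2.69 to 6.95) against 27.5% (25.9 to 29.1). The WGATAR share was 79.2% for 8 bases, 80.4% for 9 and 73.4% (61.5 to 82.7) for 10, and these intervals overlapped. With the extended motif, there were 14.0 members (11.9 to 16.5) for every 10000 composites of the genome with 9 bases, 8.83 (7.15 to 10.8) with 8 and 3.61 (2.65 to 4.8) with 10, so the order of the spacings was the same among composites with WGATAR.

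**Figure D2:**
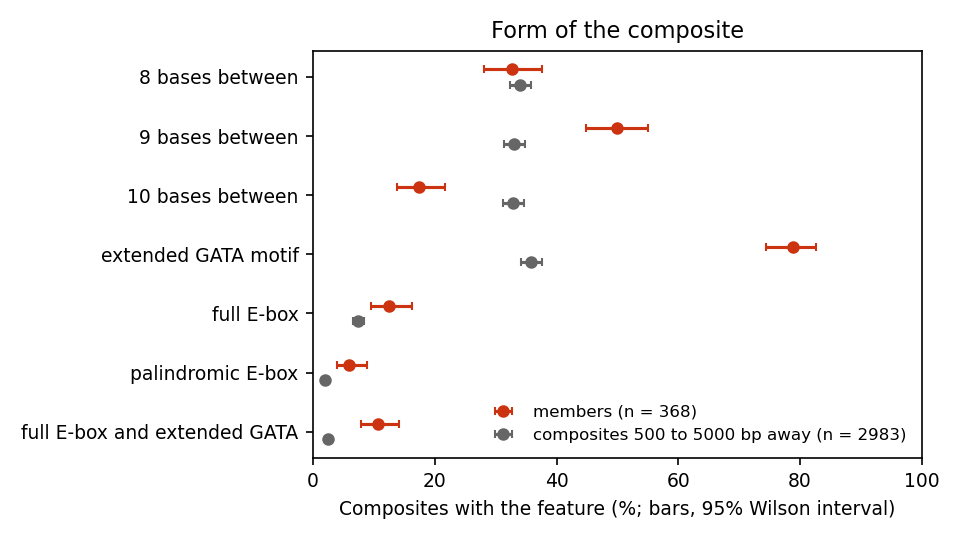
Share of composites (x axis, %) with each spacing, with the extended GATA motif WGATAR, with a full E-box CANCTG, with its palindromic form CAGCTG, and with a full E-box and WGATAR together, in members (red) and in composites 500 to 5000 bp from a shared summit (grey); bars are 95% Wilson intervals. The extended GATA motif was present in 78.8% of members and 35.8% of neighbours, and the full E-box in 12.5% and 7.38%.

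The half-site was seldom part of a full E-box. CANCTG was complete in 46 of 368 members (12.5%, 9.50 to 16.3), compared with 7.38% (6.49 to 8.37) of neighbouring composites and 9.68% of those of the genome, which lay within the interval of the members. The variants did not behave alike. CAGCTG was found in 22 members (5.98%, 3.98 to 8.89), above both the neighbours (1.88%, 1.45 to 2.43) and the genome (1.87%). CATCTG, in 17 members (4.62%, 2.90 to 7.27), lay between the neighbours (2.61%) and the genome (5.46%), while CAACTG in 4 and CACCTG in 3 (0.815%, 0.278 to 2.37) were no more frequent than in either. Of the 22 members with CAGCTG, 20 had WGATAR, so CAGCTG and WGATAR stood together in 5.43% of members (3.55 to 8.24) and in 0.536% (0.330 to 0.870) of the neighbours. For every 10000 CAGCTG composites of the genome 12.3 (7.68 to 18.6) were members, compared with 3.71 (3.32 to 4.14) for half-sites and 3.24 (1.89 to 5.2) for CATCTG.

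The full E-box was complete in 21 of 120 members with 8 bases (17.5%, 11.7 to 25.3), in 21 of 184 with 9 (11.4%, 7.59 to 16.8) and in 4 of 64 with 10 (6.25%, 2.46 to 15.0). Composites of the genome ran in the same order, with 14.3%, 9.73% and 5.51%, and among them CATCTG made up 10.2% of those with 8 bases and 1.51% of those with 10. Other positions beside CTG differed too. The base after CTG was A in 10.3% of members (7.62 to 13.9) and 27.8% of neighbours, and C in 28.8% (24.4 to 33.6) and 17.6%. The base before CTG was A in 10.9% of members (8.08 to 14.5) and 21.4% of neighbours. The second base before CTG, which is A in an E-box, was G in 34.5% of members (29.8 to 39.5) against 22.2% of neighbours, whereas A stood there in 25.5% and 24.7%.

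The position of the composites was then read against the summits. The midpoint of the composite was a median of 19.5 bp (17 to 21) from the replicate 1 summit, a distance that the window itself limits to 42.5 bp. The replicate 2 summit was not used by the choice, but it lay a median of only 23 bp (20 to 26) from the replicate 1 summit, so the distance to it is largely set as well. From the replicate 2 summit the median was 27.5 bp (24.5 to 31), with 136 members (37.0%, 32.2 to 42.0) within 20 bp and 76 over 50 bp away. The same composite lay in the 100 bp around the replicate 2 summit in 267 members (72.6%, 67.8 to 76.9), and 285 held a composite there. Over all 1003 shared peaks, composites occurred at 499 per 100000 bases within 20 bp of the replicate 2 summit. At 60 to 80 bp there were 259 and at 200 to 500 bp 35.7, which is close to the 37.1 seen at that distance from replicate 1 summits.

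**Figure D3:**
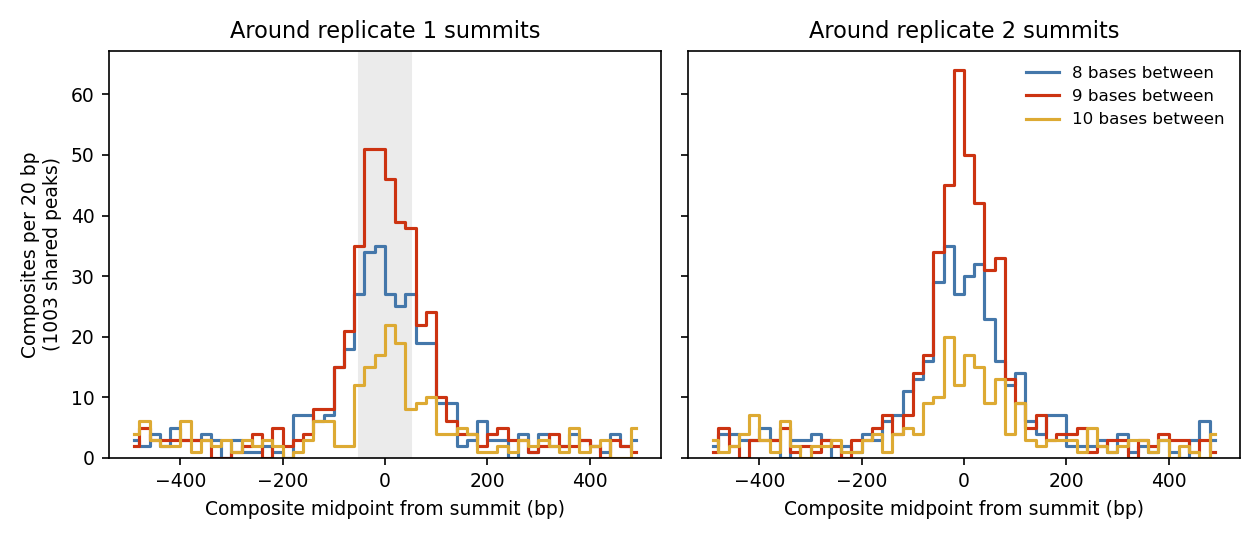
Number of composites (y axis, per 20 bp, over the 1003 shared peaks) by the distance of their midpoint from the summit (x axis, bp), for 8, 9 and 10 bases between the elements; the left panel is centred on replicate 1 summits, with the 100 bp window that chose the members in grey, and the right panel on replicate 2 summits. All 3 spacings peak within about 100 bp of either summit, 9 bases is highest at both, and the counts level off beyond 200 bp.

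Further sites were present around the composite. Outside it, 150 member windows (40.8%, 35.9 to 45.9) held another WGATAR, compared with 17.4% of the windows 500 bp to either side and 20.8% of all 100 bp windows of the genome. CAGCTG outside the composite was found in 38 windows (10.3%, 7.62 to 13.9), against 4.35% of flanks and 3.63% of the genome. It was not particular to members. Whole windows held it in 11.2% (8.49 to 14.7) of other shared peaks with WGATAR and 16.2% (12.1 to 21.5) of those with neither motif. For motifs of other factors, whole windows of 100 bp were compared. AGGAA, the core of the ETS motif, was found in 43.2% of members (38.2 to 48.3) and 34.6% of their flanks. It was in 46.9% (42.1 to 51.8) of the 401 other shared windows with WGATAR and 48.7% (42.4 to 55.1) of the 234 without either motif, and these intervals overlapped that of the members. TGTGGT, the core of the RUNX motif, was in 12.2% of member windows (9.27 to 15.97), 8.15% of their flanks and 7.01% of the genome. The other shared windows were alike, with 12.5% where WGATAR was present and 12.4% with neither motif. CACCC, bound by KLF factors, was in 19.6% of member windows (15.8 to 23.9) and 22.4% of flanks, and the AP-1 motif TGANTCA in 2.17% (1.11 to 4.23) and 3.67%. Motifs were read on both strands, and a window in which they are not found says nothing about the factor. Member windows held a median of 51% G and C (50 to 52), and their flanks 47%.

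The strength of the members was then set beside that of the other shared peaks. Fold enrichment is the authors' ratio of ChIP fragments to local background at the summit, and it was compared within a library only, since the controls differed. In replicate 1 its median was 7.39 (6.88 to 7.71) in the 368 members, 6.83 (6.54 to 7.35) in the 401 shared peaks with WGATAR but no composite, and 6.29 (5.78 to 6.65) in the 234 with neither. In replicate 2 the medians were 5.58 (5.38 to 5.84), 5.26 (5.16 to 5.49) and 5.28 (5.01 to 5.58). The intervals of members and of WGATAR peaks overlapped in both libraries. Members ranged from 2.54 to 29.1 in replicate 1 and from 2.94 to 15.0 in replicate 2. By mean rank over both libraries, members made up 42.0% (36.0 to 48.2) of the 250 strongest shared peaks and 39.8%, 37.1% and 27.9% (22.7 to 33.7) of the following sets of 251. They numbered 50 of the 100 strongest. Of all shared peaks members made up 36.7% (33.8 to 39.7). This share lay within the intervals of all but the last of the sets of 250 and 251. No interval was computed for the 100 strongest, where the share of members was highest.

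**Figure D4:**
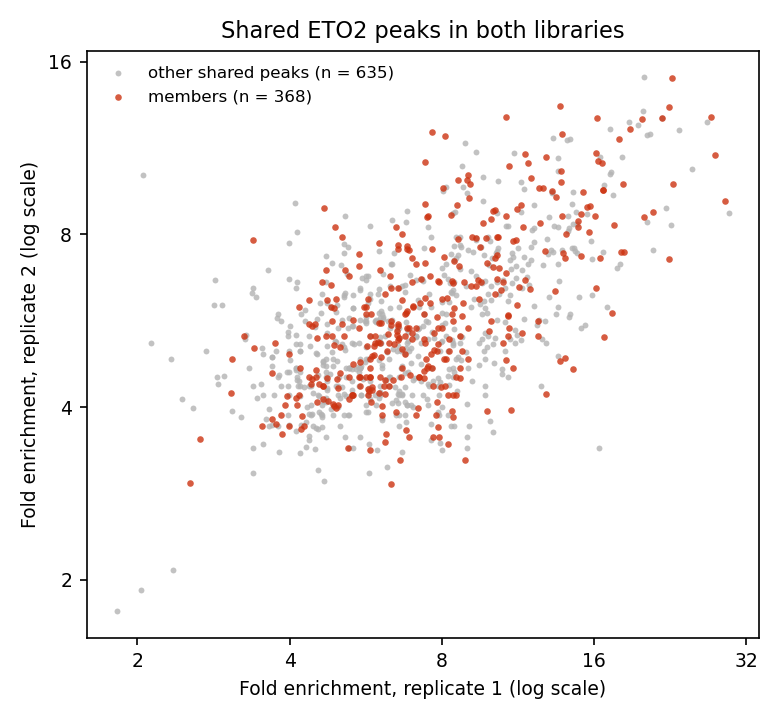
Fold enrichment at the summit in replicate 1 (x axis) and replicate 2 (y axis), both on log scales, for the 368 members (red) and the 635 other shared peaks (grey), 1 point per peak. Members cover nearly the whole range of shared peaks, from 2.54 to 29.1 in replicate 1, and rise together in both libraries (Spearman's rho of 0.593 across members, a description over peaks).

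Fragment numbers at the summit, recovered from the fold enrichment and p-value of each peak, show what lies behind these ratios. Members had a median of 40 fragments (37 to 43) in replicate 1 and 37 (35 to 39) in replicate 2, with ranges of 13 to 206 and 20 to 189. There were more fragments in replicate 1 in 179 members, more in replicate 2 in 180, and the same number in 9. The intervals of the spacings, which describe the spread among peaks, overlapped in both libraries. The replicate 1 fold was 7.72 (6.78 to 8.34) with 8 bases, 7.36 (6.82 to 7.84) with 9 and 6.98 (5.70 to 7.81) with 10, and the replicate 2 fold was 5.46, 5.82 and 5.51. The same held for a full E-box, with 6.68 (5.89 to 7.71) in replicate 1 against 7.43 (6.99 to 7.89) for half-sites, and for its CAGCTG form, with 7.46 (5.82 to 9.63). Members without WGATAR had 7.04 (6.16 to 8.16) against 7.42 (6.97 to 7.81) with it.

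Over all depths, replicate 1 peaks with the composite were found again in replicate 2 more often than peaks without composite and WGATAR. The order was the same within each of 4 classes of depth, although there the intervals overlapped. Overlap and composite are both part of the choice, and the spacings were chosen with a scan of these peaks known. These shares are therefore a description and no support for the composite. Of the 697 replicate 1 peaks with the composite at the summit, 52.8% (49.1 to 56.5) were shared, compared with 45.7% (42.4 to 49.0) of 878 with WGATAR only, 30.8% (27.6 to 34.2) of 760 with neither and 43.0% of all. Depth moved with these shares, and its part in them was not tested. Among the peaks with the most fragments (38 to 206), 89.4% (84.6 to 92.8), 88.2% and 82.9% (74.8 to 88.8) were shared. Among those with 28 to 37 fragments the shares were 53.6% (46.3 to 60.7), 51.5% and 48.7% (41.1 to 56.5). Among those with 22 to 27 fragments the shares were 35.0% (28.0 to 42.8), 24.8% (19.5 to 30.9) and 23.5% (17.9 to 30.1), and among those with the fewest (12 to 21) they were 15.5% (10.5 to 22.3), 14.4% and 7.14% (4.76 to 10.6). Low-depth peaks made up 308 of the 760 with neither motif and 142 of the 697 with the composite. In replicate 2, 387 of 456 peaks with the composite (84.9%, 81.3 to 87.9) were shared, compared with 54.2% of all replicate 2 peaks, which include them. The replicate 2 shares were not divided by depth or by WGATAR.

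The limits of the choice fell differently for overlap and for the window. The smallest overlaps between libraries were 87, 93 and 107 bp, well above the minimum of 1 bp, at members nearest to 1700034H15Rik (6.61 and 3.23), Mtus1 (3.84 and 3.88) and Stk25 (3.75 and 3.73). Of replicate 1 peaks with the composite but no overlapping replicate 2 peak, the closest lay 115 bp from one, nearest to Galnt2. The window edge, in contrast, ran through peaks of like strength. The 79 members with under 10 bp to the edge had median folds of 7.42 and 5.65, and the 182 shared peaks with the composite only in a 200 bp window had 7.46 and 5.65. In 7 members the composite ended at the edge of the window, among them those nearest to Gse1, Gadl1 and Gimap6. In 23 shared peaks it reached 1 to 3 bp beyond it, including one nearest to Gata1, with fold enrichments of 6.57 and 5.98. Another 26 shared peaks had the pair only with 7 bases (median fold 7.03 and 4.92) and 23 only with 11 (5.33 and 5.22).

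Members were mainly distal, as were shared peaks in general. Between genes lay 195 of their summits (53.0%, 47.9 to 58.0), 161 lay in introns (43.8%, 38.8 to 48.9), and only 9 were in UTRs and 2 in coding exons. Over all 1003 shared peaks, 54.2% were intergenic (51.1 to 57.3) and 42.5% intronic (39.4 to 45.6). The nearest start of a protein-coding gene was a median of 20.03 kb away (16.6 to 23.3), with a range of 0.008 to 937 kb, compared with 22.6 kb (19.96 to 24.9) over all shared peaks. The start lay within 10 kb in 131 members, between 10 and 50 kb in 136, between 50 and 100 kb in 46 and further in 55. Upstream and downstream positions were about equally common, with 194 members (52.7%, 47.6 to 57.8) upstream, against 51.4% of all shared peaks. Of 173 members inside a gene, 139 had that gene's start as the nearest and 34 were nearest to another. Promoters (1 kb to either side of a start) held 32 members (8.70%, 6.23 to 12.02), compared with 3.74% (2.28 to 6.08) of the other WGATAR peaks and 9.40% (6.29 to 13.8) of peaks with neither motif.

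The members at promoters included several within 100 bp of a start. The closest lay 8 bp downstream of a start of Runx1t1, which encodes ETO, a co-repressor related to ETO2. Its fold enrichment was 9.11 in replicate 1 and 6.50 in replicate 2, and its half-site was part of CATCTG. The next were 34 bp downstream of Ccrl2, a chemokine-binding receptor (6.78 and 5.84), and 50 bp downstream of Ctse, encoding the aspartic protease cathepsin E. The Ctse member had CAGCTG, 8 bases and AGATAA, and had the higher value in replicate 2 (7.42 and 9.05, with 49 and 75 fragments). Arrb1, encoding the receptor adaptor beta-arrestin, had a member 54 bp upstream of a start (9.49 and 6.16), and Tmcc2 one 76 bp upstream (7.62 and 4.95).

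In all 337 genes were nearest to a member, 1.52% of the 22238 protein-coding genes of the annotation. Of these, 310 had 1 member, 24 had 2 and 3 had more. Another shared peak was nearest to 58 of the 337. Within 50 kb, 53 members (14.4%, 11.2 to 18.4) had another member, and 103 (28.0%, 23.6 to 32.8) had any other shared peak, the same share as for shared peaks in general (28.0%). Smad7, Cbfa2t3 and Gse1 were the genes with 3 or more.

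The 12 strongest members were at genes of varied function. The first lay 12.2 kb downstream of the start of Rbm38, an RNA-binding protein, with fold enrichments of 27.3 and 12.8 and 143 (121 to 168) and 136 (114 to 161) fragments. The second was 122 kb downstream of the start of Cand1, a regulator of cullin ubiquitin ligases (22.8 and 15.0), and the third 31.9 kb upstream of Ric3, a chaperone of acetylcholine receptors (22.5 and 13.3). The high values of these 3 in both libraries follow from the ranking, which averaged over both.

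The highest replicate 1 value of all members, 29.1, was in an intron of Skap1, an adaptor of lymphocyte signalling, where replicate 2 gave 9.17. Members in an intron of Zfp423, a zinc-finger protein that binds SMADs (19.9 and 12.7), and 6.15 kb from the start of Cebpe, a granulocyte transcription factor (18.9 and 12.2), were followed by those at Dus3l (17.9 and 11.7) and Ly86 (16.2 and 12.8). The strongest members with 10 bases were nearest to the olfactory receptor gene Olfr1378 (16.1 and 11.1) and to Irs2, an insulin receptor substrate (18.2 and 9.80). The other members of the 12 were at Smad6, Cbfa2t3 and Gse1 and are described with their groups.

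To describe genes of the blood programme, 8 lists were used, which were drawn up with earlier results of these data known. Their 159 genes in the annotation included 21 (13.2%) that were nearest to a member and 44 (27.7%) that were nearest to any shared peak.

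For the SCL complex itself, 4 of 17 genes were nearest to a member. These were Cbfa2t3, Lyl1, Gata2 and Runx1t1, while Tal1, Lmo2 and Gata1 had other shared peaks only. Cbfa2t3 had the strongest member of the listed genes in replicate 1, 20.8 kb upstream of its start, with 206 fragments (179 to 236) and a fold of 27.7 in replicate 1 and 183 (157 to 212) and 11.02 in replicate 2. A further member in its own intron had 16.7 and 5.29, and the third, 1.85 kb upstream, had 4.24 and 3.86. Lyl1, a close relative of SCL, had a member 196 bp downstream of its start (10.3 and 7.92), in untranslated sequence where it overlaps Nfix. Gata2, a GATA factor of early blood cells, had 2 members, the stronger in an intron (7.21 and 4.52) with GGATAG in place of WGATAR.

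Of 26 other blood transcription factors, 5 had a member. Nfe2, an erythroid and megakaryocyte factor, had one 186 bp upstream of its start (11.8 and 10.7), with 60 and 83 fragments. Runx1, the factor required for blood stem cells to form, had 2 members, the stronger 322 kb upstream (11.2 and 8.86). Values were lower at Ikzf2 (7.81 and 4.09, 190 kb from the start) and at Myb, a factor of progenitors, where 27 and 26 fragments gave 4.14 and 4.03, 35.8 kb upstream. Zfpm1, which encodes the GATA partner FOG1, is described with the co-repressors. Both libraries placed Nfe2 above Runx1 and Runx1 above Ikzf2 and Myb, and in replicate 2 the last pair were nearly equal.

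Among red cell and platelet genes, Tspan33, a tetraspanin of red cell precursors, had a member in an intron (10.7 and 8.61), with 63 and 55 fragments.

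Of 24 endothelial genes, 4 had a member, with folds of 6.33 to 12.8 in replicate 1 and 2.94 to 4.68 in replicate 2. The medians of all members were 7.39 and 5.58. The member of Kdr, which encodes FLK1 and is also active in mesoderm, was intergenic, 77.9 kb downstream of its start (7.98 and 4.33). Those of Flt1, another receptor for vascular growth factors (7.63 and 4.68), and of Sox17, an endodermal and arterial factor (6.33 and 2.94, 146 bp upstream of its start), had between 27 and 37 fragments in either library. At Efnb2, an arterial ligand, the member had 80 fragments in replicate 1 and 41 in replicate 2 (12.8 and 4.22), but the composite lay 409 bp from the replicate 2 summit, so that the libraries placed their summits at different points of a wide region.

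**Figure D5:**
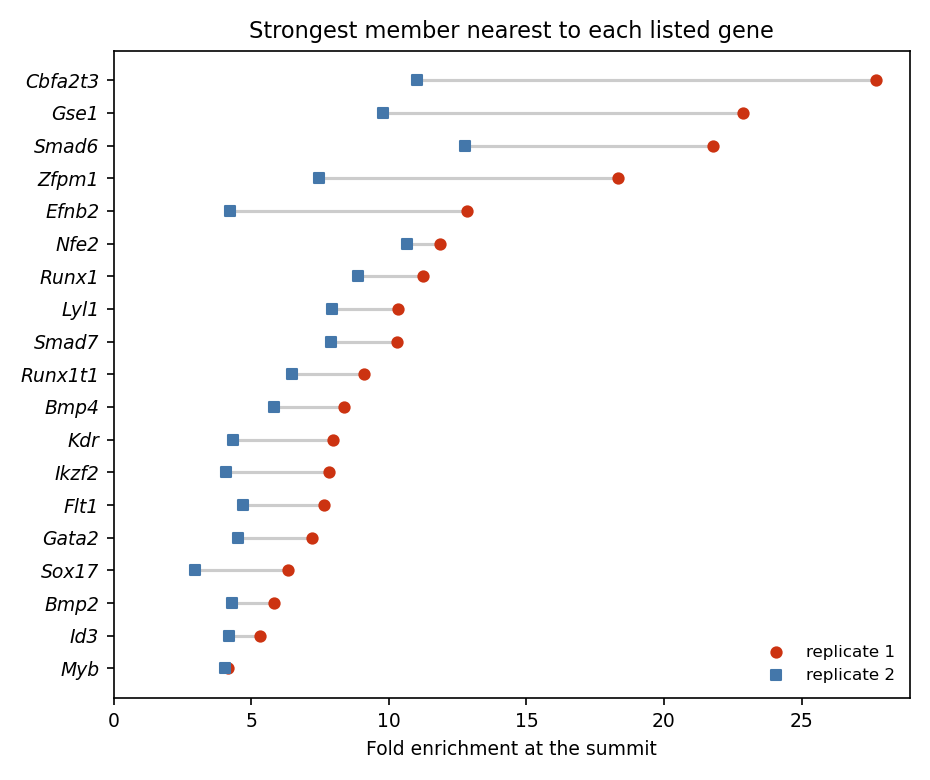
Fold enrichment at the summit (x axis) of the strongest member nearest to each listed gene (y axis), without the red cell and platelet list, in replicate 1 (circles) and replicate 2 (squares), joined by a line; the libraries had different controls, so levels are read within a library. Cbfa2t3, Gse1, Smad6 and Zfpm1 were the 4 highest in replicate 1 (18.3 to 27.7), whereas Nfe2 came after Smad6 and Cbfa2t3 only in replicate 2 (10.7).

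Of 20 co-repressor and Polycomb genes, Gse1, a subunit of histone deacetylase complexes, and Zfpm1 had members. Gse1 had 3, all upstream of its start, at 117 kb (22.9 and 9.79), 13.2 kb (5.88 and 4.93) and 1.68 kb (4.83 and 6.53). Zfpm1 was nearest to 2 members in its introns (18.3 and 7.45, and 6.19 and 3.59), and another member in its intron, nearest to a start of Trhr2, had 22.5 and 7.26. No Polycomb gene of the list had a member, and Rybp and Pcgf5 had other shared peaks only. Outside the list, and chosen after their values were seen, the Polycomb genes Ezh1 and Jarid2 had members. Ezh1, a histone methyltransferase, was nearest to 2, at 4.34 kb downstream of its start within Cntnap1 (11.7 and 11.03) and 5.84 kb upstream (5.08 and 5.58), and Jarid2, a subunit of the same complex, to one 228 kb upstream (5.06 and 7.92). The Gse1, Zfpm1 and Cbfa2t3 loci all lie on chromosome 8 within the gene model Gm20388 (chr8:122434741-126869622), which held 11 members among its 29 shared peaks. For comparison, members made up 36.7% of all shared peaks and 32.7% of the 107 on chromosome 8. The local background, in the scaled units of the peak caller, was 9.02 in replicate 1 and 15.7 in replicate 2 for the strongest Cbfa2t3 member, compared with medians of 6.00 and 5.66 over all members, and its part in these folds was not tested.

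BMP signalling, which patterns mesoderm, had members at 5 of 17 genes. The strongest was at Smad6, an inhibitor of BMP receptors, 23.2 kb upstream of its start, with 130 (109 to 154) and 118 (97.7 to 141) fragments and folds of 21.8 and 12.8. Smad7, another inhibitory SMAD, was nearest to 4 members, more than any other gene, with folds of 4.21 to 10.3 in replicate 1 and 3.67 to 7.91 in replicate 2. These lay 73.9 to 128 kb from its start, 2 of them in introns of Ctif and 1 in an intron of Dym. Ligands had single, distant members, 183 kb upstream of Bmp4 (8.39 and 5.82) and 121 kb upstream of Bmp2 (5.82 and 4.28), and Id3, a BMP target, had one 38.7 kb upstream (5.30 and 4.2).

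No member was nearest to any of the 16 cardiac or the 14 paraxial genes, which mark other fates of mesoderm. Among these Gata6, Tbx20, Foxc2 and Irx3 had other shared peaks. Since the lists are short, counts of 0 of 16 and 0 of 14 do not show that the composite is absent from such loci.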

How the data were processed

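ETO2 ChIP-seq peak lists of both libraries were analysed. Per the study's methods, the authors aligned read pairs with Bowtie to mm9, keeping unique alignments, removed duplicates, and called peaks with MACS2 (version 2.0.10 per the labels). In the deposited lists each peak has an integer score, a fold enrichment (a ratio of scaled fragments to local background), −log10 p and q values, and a summit, all computed by the authors. The input library was not analysed here. Total reads are not in the lists, so fragments at the summit were solved from fold enrichment and p-value with a Poisson model, which gave whole fragments for 100% of peaks in both lists (error in −log10 p of at most 0.003). Replicate 1 peaks held 12 to 206 fragments and replicate 2 peaks 18 to 236, and these limit the precision of each fold enrichment. The solution was tested on simulated data.

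Genome sequence and GENCODE vM1 genes were of build NCBIM37, whose chromosome names and lengths match mm9. Coordinates count from 1. Where a window held several composites, that with its midpoint nearest to the summit was taken (then 9 bases, then the plus strand). Flanks were 100 bp windows centred 500 bp from the summit. Shares have 95% Wilson intervals. Python 3.11.15, NumPy 2.4.6 and SciPy 1.17.1 were used. Members and gene lists were chosen with earlier results of these data known. Named members were the 12 ranked highest by fold enrichment averaged over both libraries, the best 2 of each spacing, the strongest at each listed gene, those at genes nearest to 3 or more members, the 5 nearest to a start site and those at the limits of the choice. Sequences were printed for members of the first groups other than that at Skap1, and none on chromosome 18 or in a UTR. Not every result under this rule is reported here. Alternatives changed the peak threshold, overlap, window, spacing, summit, start sites and libraries.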

Additional observations from a re-analysis of the deposited data

How the results depend on the processing

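Of 100 recomputed values, 82 stayed within the counting interval of the value given (or within 1.5 times for the count of genes) and 18 moved. Windows set the share of shared peaks with the composite (36.7%), which was 21.7% with 60 bp, 54.8% with 200 bp and 41.5% with 7 to 11 bases, and by construction the distance from the summit, which was 11.8 bp with 60 bp and 31 bp with 200 bp. With 60 bp, 12 listed genes were nearest to a member. With 7 to 11 bases, 43.3% of members had 9. A fold enrichment of at least 5 in both libraries left 220 members, which were 40.9% of shared peaks, with 5.91% at promoters, median folds of 8.77 and 6.82, 46.2% of replicate 1 peaks with the composite shared and 11 listed genes. With 50% overlap that share was 46.8%. Around the replicate 2 summit, WGATAR was at the composite in 84.3%. Taking each library alone gave composites in 24.4% to 29.9% of peaks, 9 bases in 49.8% to 52.4%, a full E-box in 12.3% to 13.2%, WGATAR in 79.1% to 82.0%, a distance of 19.5 bp in both, promoters in 8.55% to 9.76%, median folds of 6.04 in replicate 1 and 5.46 in replicate 2, and 24 to 31 listed genes. Leaving out soft-masked repeats was planned but not run, as the genome used here carries no masking. Instead, keeping only peaks of either library with a summit window in which at least 90% of 24-mers occur once, an alternative chosen after the data were seen, kept 340 members and moved no value. No paired analysis was possible because both libraries belong to 1 group.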
